A study of Mus musculus with 3 samples.

Results

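Platelet-derived growth factors (PDGFs) are secreted dimers that act on a pair of receptor tyrosine kinases, PDGFRα and PDGFRβ. The genes described here are the 6 that encode them: the ligands Pdgfa, Pdgfb, Pdgfc and Pdgfd and the receptors Pdgfra and Pdgfrb, taken by symbol from the 32285 genes of the count matrices. In developing retina PDGF-B from endothelial cells binds PDGFRβ on pericytes, the mural cells of capillaries, and holds them to the vessel wall. PDGF-A acts mainly through PDGFRα, which in the retina is known as the receptor of astrocytes, while PDGF-C and PDGF-D are secreted as latent factors that proteases must cut.

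Retinas came from C57BL/6JRj mice of 3 ages: 3 months (young), 12 months (adult) and 23 months (old), with no other treatment or allele. At each age the 4 retinas of 2 mice were pooled, cells carrying the endothelial surface protein CD31 were enriched on magnetic beads, and the suspension gave 1 droplet library of 3′ transcript tags. The 3 libraries held 16577026 to 19977238 unique molecular identifiers (UMIs, 1 per captured transcript), and 1706 young, 1957 adult and 1697 old cells were kept. Each age is a single library, so no test was possible, no value has a replicate, and every interval is a 95% interval for counting error only. Levels are a gene's UMIs divided by all UMIs of its class, on the usual CPM scale, and because they are 3′ tags a level is compared for 1 gene across classes, not between genes.

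Cells fell into 17 classes, named from fixed marker genes, and the 10 with at least 30 cells in every library were compared. Among them were endothelial cells (446 young, 432 adult and 411 old), pericytes (171, 130 and 103), smooth muscle cells (38, 38 and 37) and Müller glia (182, 215 and 209). Droplets that carried endothelial and mural markers together formed a mixed class of 311, 250 and 224, with median UMI counts of 13663, 14966.5 and 14720 against 5642.5, 5993 and 7462 in endothelial cells. All 8 endothelial markers and all 8 pericyte markers were detected in their own class. The 6 PDGF genes and the genes of their pathway were kept out of the clustering, so the classes do not rest on them.

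Pdgfb (ENSMUSG00000000489; GRCm38 chromosome 15, 79995874 to 80014977, minus strand) had its highest levels in the classes with endothelial markers. Of its 10874 UMIs in kept cells, 50.6% were in endothelial cells and 41.3% in mixed droplets. Its level in endothelial cells was 528 CPM in the young library (interval 504 to 554), 536 in the adult (511 to 561) and 537 in the old one (513 to 561). The 3 libraries were within counting error of each other: the old to young ratio was 1.02 (0.95 to 1.08) and the adult to young ratio 1.01 (0.95 to 1.08). Endothelial cells held a median of 3, 3 and 4 Pdgfb UMIs each, with at most 25, 25 and 24, and at least 1 in 86.3, 87.5 and 92.9% of cells. With every cell thinned to 2000 UMIs, which left 432, 403 and 406 endothelial cells, that share was 62.0, 64.3 and 64.8%. Rods, photoreceptors that do not belong to the vessel wall, had shares of 0, 0.461 and 0.704% in the 105, 217 and 142 left, from median UMI counts of 2287, 2425.5 and 2162.5.

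An unnamed class with endothelial markers and low UMI counts had Pdgfb at 671, 601 and 558 CPM going from young to adult to old, and its interval overlapped that of the endothelial cells in each library. Pericytes had 31.1, 28.7 and 45.9 CPM, and smooth muscle cells 13.0, 21.3 and 33.4. Over the libraries together the pericyte level was 6.47% of the endothelial one, and the 8 endothelial markers had a median of 6.57% of their endothelial level in pericytes. Pdgfb lay above 3 and below 5 of those markers. Whether these UMIs were carried over from endothelial cells or made in pericytes was not tested. In smooth muscle cells, at 4.33% of the endothelial level, it lay above 7 of the 8 markers, whose median was 1.17%, from 23 UMIs in all. In rods, Müller glia, cones and bipolar cells it had between 1 and 9 UMIs in all.

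Pdgfrb (ENSMUSG00000024620; chromosome 18, 61045150 to 61085061, plus strand), the receptor for PDGF-B and PDGF-D, had its highest level in pericytes. There it stood at 1851 CPM in the young library (1752 to 1954), 1722 in the adult (1615 to 1834) and 1471 in the old (1366 to 1581). The old library was below both of the others: the old to young ratio was 0.79 (0.73 to 0.87) and the old to adult ratio 0.85 (0.77 to 0.94), while the adult to young ratio was 0.93 (0.86 to 1.01). Of the 3913 genes with at least 50 UMIs in young and old pericytes, 12.6% had an old to young ratio as low or lower. Per pericyte the mean was 7.65, 7.39 and 7.16 UMIs and the median 7, 6 and 6, while the median UMI count of a pericyte was 4011, 3972 and 4674.

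The lower Pdgfrb level of the old library stood beside a summed level of the 8 pericyte markers of 34876 CPM young, 32684 adult and 34457 old. Of these markers 3 had an old to young ratio below 1 and only Abcc9, a potassium channel subunit, was lower beyond counting error, at 2916 CPM young and 2506 old (ratio 0.86, 0.80 to 0.92). Kcnj8, its channel partner, was higher, at 1299 and 1519 CPM (1.17, 1.06 to 1.29). In the adult library both were below the young one beyond counting error, Abcc9 at 2438 CPM (0.84, 0.78 to 0.90) and Kcnj8 at 1041 (0.80, 0.72 to 0.89), as were Cspg4 (0.83, 0.72 to 0.95) and Vtn (0.84, 0.81 to 0.87). Rgs5, a regulator of G-protein signalling, stood at 15425 and 15005 CPM (0.97). Erythroid markers, carried by red blood cells, summed to 19.8, 39.4 and 385 CPM in young, adult and old pericytes, and endothelial markers to 869, 976 and 1131. Smooth muscle markers, from cells with less Pdgfrb, summed to 2967, 4601 and 4374 CPM. Leaving out pericytes with 2 or more UMIs of the smooth muscle genes Acta2, Tagln and Myh11 kept 128 young, 82 adult and 63 old ones. Among them the old to young ratio of Pdgfrb was 0.77 and the adult to young ratio 0.99, without intervals. The part of the smooth muscle, erythroid and endothelial markers was not tested.

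Smooth muscle cells had less Pdgfrb than pericytes in every library, at 426, 414 and 351 CPM, or between 23.0 and 24% of the pericyte level. In them the old to young ratio was 0.82 (0.64 to 1.06), not beyond counting error, and 1.24 with cells thinned to 2000 UMIs. Mixed droplets had 654, 654 and 591 CPM, with an old to young ratio of 0.90 (0.85 to 0.96). Müller glia, the radial glia of the retina, had 72.6 CPM young (60.3 to 86.8), 90.3 adult (77.4 to 105) and 74.8 old (61.8 to 89.7), with at least 1 UMI in 41.8, 50.7 and 35.4% of cells. After thinning, 15.1, 19.1 and 13.8% of the 172, 199 and 167 Müller glia left had one, against 0, 0 and 0.704% of rods. Relative to pericytes this was 4.70%, above all 8 pericyte markers, whose median in Müller glia was 0.207% of their pericyte level.

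Endothelial cells had 31.9, 31.4 and 23.2 CPM of Pdgfrb, or 1.68% of the pericyte level, and here 5 of the 8 pericyte markers lay higher. The old to young ratio of 0.73 (0.54 to 0.98) went with pericyte markers that summed to 2011, 2029 and 1319 CPM in endothelial cells. Both Pdgfb and Pdgfrb were detected in 95.8, 94.8 and 95.5% of mixed droplets, in 8.97, 12.7 and 10.7% of endothelial cells and in 10.5, 9.23 and 14.6% of pericytes. After thinning these shares were 35.7, 36 and 34.1% in mixed droplets, 2.55, 3.23 and 1.97% in endothelial cells and 2.61, 3.7 and 8.05% in pericytes.

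**Figure D1:**
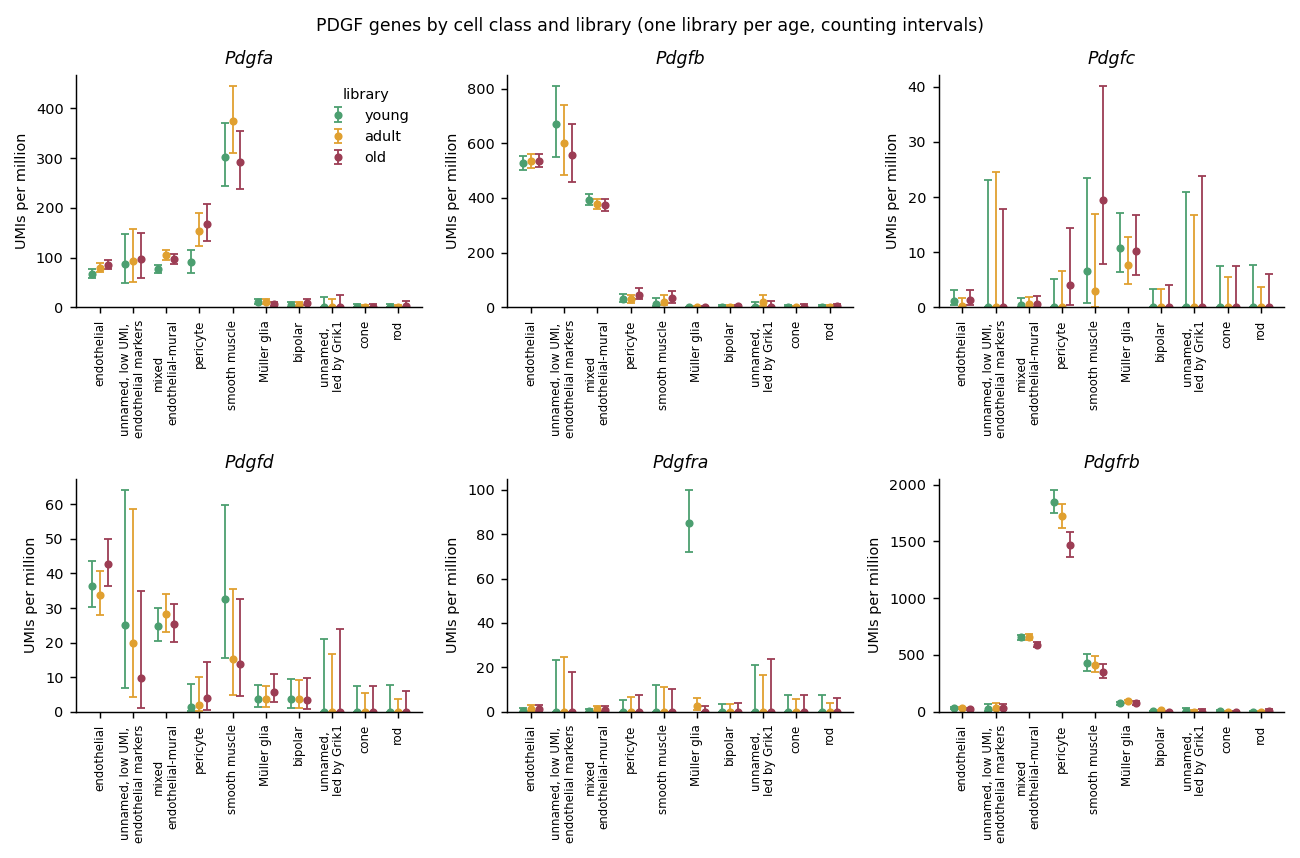
Level of each PDGF gene (CPM, linear axes that differ between panels) in the 10 compared cell classes, with 1 point per library and bars for the 95% Poisson interval. Pdgfb is high in the classes with endothelial markers, Pdgfrb is highest in pericytes, and Pdgfra is highest in the young Müller class, at 85.2, where all its UMIs come from 6 cells.

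Pericytes, the cells that PDGF-B acts on, were a smaller share of the older libraries. That lower share was known when these genes were chosen, so it is given as a description and supports nothing. They made up 10.0% of young cells (8.64 to 11.5), 6.64% of adult cells (5.58 to 7.84) and 6.07% of old cells (4.98 to 7.31). The adult and old intervals overlap and both lie below the young one. Rods, which set part of that denominator, were 9.73, 16.5 and 13.8% of cells. Set against endothelial cells alone, there were 38.3 pericytes per 100 endothelial cells in the young library (32.0 to 45.8), 30.1 in the adult (24.5 to 36.7) and 25.1 in the old (20 to 31.2). The young and old intervals do not overlap, and the adult interval overlaps both. Mixed droplets were also fewer, at 18.2, 12.8 and 13.2%, while smooth muscle cells stood at 2.23, 1.94 and 2.18%. Endothelial cells, pericytes, smooth muscle cells and mixed droplets together were 966, 850 and 775 cells. Pericytes were 17.7, 15.3 and 13.3% of them, with overlapping intervals of 15.3 to 20.3, 12.9 to 17.9 and 11.0 to 15.9. The low-UMI class with endothelial markers (61, 70 and 82 cells) is not in that sum. The beads were raised against an endothelial protein, and how pericytes came through them was not tested. How much of the difference lies in the tissue and how much in the enrichment cannot be told apart.

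The UMI sums of ligand and receptor were also set side by side, as a description that rests largely on the cell numbers above. Endothelial cells held 1724 Pdgfb UMIs and pericytes 1308 Pdgfrb UMIs in the young library, or 1.32 of one per UMI of the other (1.23 to 1.42). For adult cells the same quotient was 1.88 (1.74 to 2.04), and for old cells it reached 2.67 (2.45 to 2.91). These intervals count UMIs only and leave out the counting error of the cell numbers. In the old library that error alone spans 20 to 31.2 pericytes per 100 endothelial cells. The quotient divides UMIs of different genes, so its size is not a ratio of ligand to receptor. It contains the number of cells in each class, their UMIs per cell and the level of each gene, and leaves out the mixed droplets. Over all kept cells, mixed droplets included, it was 0.79 (0.76 to 0.82), 0.85 (0.82 to 0.89) and 1.11 (1.06 to 1.16) in turn. Per cell, the mean Pdgfb count of an endothelial cell was 3.87, 4.19 and 4.79 UMIs. With smooth muscle cells on the mural side the quotient was 1.20, 1.65 and 2.28.

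**Figure D2:**
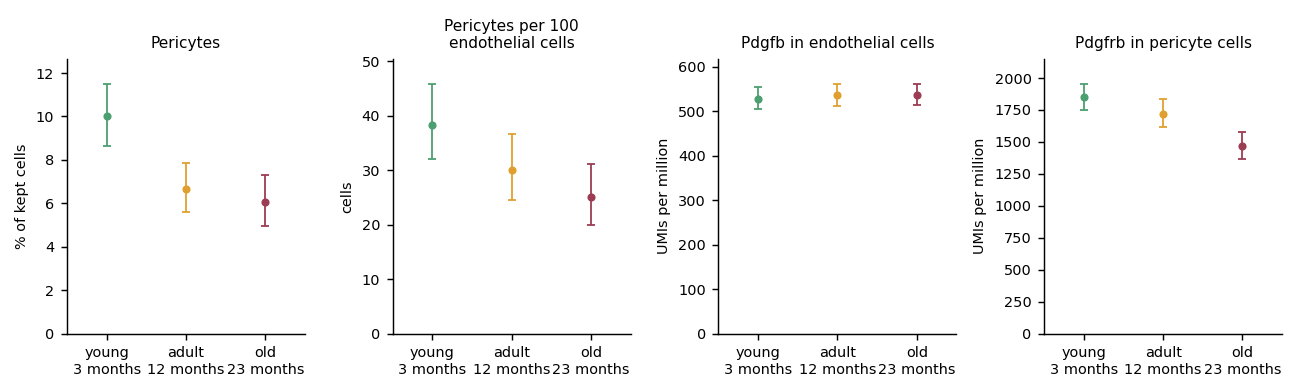
Pericytes as a share of kept cells and per 100 endothelial cells, Pdgfb in endothelial cells and Pdgfrb in pericytes (CPM), by library, with 95% counting intervals. The pericyte values step down from 10.0 to 6.07% and Pdgfrb from 1851 to 1471 CPM, while Pdgfb stays between 528 and 537.

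Pdgfa (ENSMUSG00000025856; chromosome 5, 138976014 to 138997370, minus strand) was a ligand of the whole vessel wall, with 2728 UMIs. Its highest level was in smooth muscle cells, at 302 CPM young (244 to 370), 374 adult (311 to 446) and 292 old (239 to 354), and at least 1 UMI was found in 89.5, 92.1 and 100% of them. After thinning the share was 44.7, 55.3 and 48.6%, and no more than 0.704% of rods in any library. The 3 libraries overlap in smooth muscle, with an old to young ratio of 0.97 (0.72 to 1.29). Pericytes came next, mixed droplets stood above endothelial cells in each library, and Müller glia had 5.80 to 10.8 CPM. A non-coding gene on the opposite strand, 6330403L08Rik, overlaps Pdgfa and had 198 UMIs in all.

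In pericytes Pdgfa was higher in both older libraries, which are set against the same young library. It stood at 90.5 CPM in the young library from 64 UMIs (69.7 to 116), 154 in the adult from 86 (123 to 190) and 168 in the old from 84 (134 to 208). The young interval lies below both others: the ratio was 1.85 (1.32 to 2.60) for old to young and 1.70 (1.22 to 2.39) for adult to young. Genes that were at least 1.5-fold higher made up 7.41% of those tested in old pericytes and 5.52% in adult ones. Smooth muscle markers, where Pdgfa is highest, moved the same way within the pericyte class and summed to 2967, 4601 and 4374 CPM. Acta2, smooth muscle actin, stood at 447, 926 and 814 CPM, Tagln at 226, 661 and 401, and Myh11 at 201, 462 and 357. Cnn1 was at 0 in all 3 libraries and Pln had 1 UMI in all. In the 128, 82 and 63 pericytes with fewer than 2 UMIs of Acta2, Tagln and Myh11, Pdgfa stood at 57.9, 83.7 and 87.0 CPM, from 30, 26 and 25 UMIs. The old to young ratio among those cells was 1.5 (0.85 to 2.65), which is not beyond counting error. It rests on fewer UMIs than in the whole class, so its interval is wider. Whether smooth muscle transcripts had a part in the Pdgfa difference was not tested.

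Endothelial Pdgfa was 67.1 CPM in the young library (58.5 to 76.6), 79.4 in the adult (70.2 to 89.5) and 86.1 in the old (76.9 to 96.1). The old to young ratio was 1.28 (1.08 to 1.53) and 12.4% of the 8995 genes with at least 50 UMIs had a ratio as high or higher. Without the endothelial cells that carried at least 2 UMIs of other cell types' markers the ratio was 1.08, from 191 young and 181 old cells. Endothelial cells were then split by their finer clusters. A cluster with 7 of 8 arterial markers, among them Bmx, Gkn3, Sema3g and Gja4, had 130, 135 and 158 cells. Another had 4 of 6 capillary and 3 of 6 venous markers (159, 160 and 149 cells), and the last, with the capillary genes Mfsd2a and Rgcc only, reached too few markers for a name (153, 137 and 103 cells).

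In the arterial cluster Pdgfa was 77.0 CPM young (61.5 to 95.2), 97.7 adult (81.1 to 117) and 131 old (113 to 151), an old to young ratio of 1.70 (1.31 to 2.22) and an old to adult ratio of 1.34 (1.06 to 1.70). In the capillary and venous cluster it was 78.5, 78.5 and 66.6 CPM, with a ratio of 0.85 (0.64 to 1.12), and in the unnamed cluster 30.9, 39.4 and 26.1, with a ratio of 0.84 (0.41 to 1.70). The intervals of the arterial and the capillary and venous ratio do not overlap, and the difference was not tested. The arterial cluster was also 29.1% of young (25 to 33.6), 31.2% of adult (26.9 to 35.9) and 38.4% of old endothelial cells (33.7 to 43.3). The result depends on where that cluster ends: a smaller cluster led by Gkn3 in the coarser clustering had 124, 137 and 159 CPM from 45, 57 and 80 cells, and a ratio of 1.29 (0.93 to 1.80), which is not beyond counting error.

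Pdgfd (ENSMUSG00000032006; chromosome 9, 6168584 to 6378850, plus strand), the ligand whose dimer binds PDGFRβ once cut, had 803 UMIs, of which 48.6% were in endothelial cells. Its endothelial level was 36.5 CPM young (30.2 to 43.6), 33.8 adult (27.9 to 40.6) and 42.8 old (36.3 to 50), and no pair of libraries differed beyond counting error. Pdgfd was uneven between the endothelial clusters. The arterial cluster had 56.2, 46.9 and 66.2 CPM against 21.7, 24.3 and 24.9 in the capillary and venous cluster, a ratio over all libraries of 2.40 (1.90 to 3.05), higher in 3 of 3 libraries. Within the arterial cluster the old to adult ratio was 1.41 (1.01 to 1.99) and the old to young ratio 1.18 (0.85 to 1.65). For Pdgfa the ratio of the arterial to the capillary and venous cluster was 1.41 (1.21 to 1.63), higher in 2 of 3 libraries, the adult and the old, and against the unnamed cluster it was 3.28 (2.49 to 4.40), higher in 3 of 3. For Pdgfb the ratio between the same clusters was 1.11 (1.05 to 1.18), higher in 3 of 3. Smooth muscle cells had Pdgfd at 32.5, 15.2 and 13.9 CPM from 10, 5 and 5 UMIs, and pericytes had 4 UMIs in all. Ddi1, a gene on the opposite strand inside Pdgfd, had 82 UMIs in all.

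**Figure D3:**
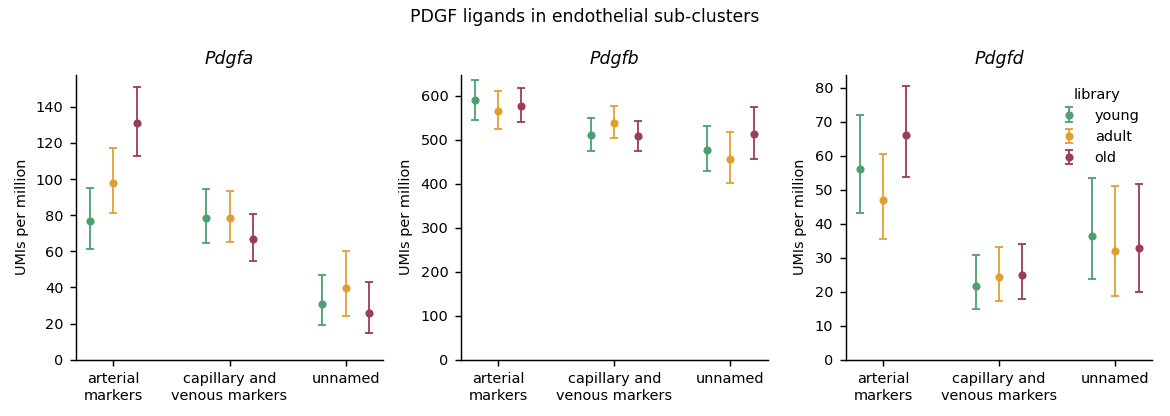
Pdgfa, Pdgfb and Pdgfd (CPM) in the 3 endothelial sub-clusters by library, with 95% Poisson intervals. Old arterial Pdgfa is the highest Pdgfa point, at 131 CPM, Pdgfb differs little between sub-clusters, and Pdgfd is lowest in the capillary and venous cluster.

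Pdgfa and Pdgfd differed more between the endothelial clusters than Pdgfb did, and the sequence before their RefSeq starts is shown for that reason (GRCm38.p6, 5′ to 3′ on the gene's strand, bases that lie in no annotated exon of the gene). The stretch for Pdgfa is the longer of 2 such stretches, 157 bases at chr5:138995038-138995194, minus strand, and lies inside the span given for the gene above, downstream of the GENCODE start, while that for Pdgfd is 250 bases at chr9:6168236-6168485, plus strand; capitals mark the only match to the motifs searched, TATAAA and GGGCGG on both strands.
Pdgfa: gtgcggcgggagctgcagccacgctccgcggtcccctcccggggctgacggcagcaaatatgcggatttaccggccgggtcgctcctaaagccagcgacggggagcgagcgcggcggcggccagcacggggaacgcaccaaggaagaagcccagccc
Pdgfd: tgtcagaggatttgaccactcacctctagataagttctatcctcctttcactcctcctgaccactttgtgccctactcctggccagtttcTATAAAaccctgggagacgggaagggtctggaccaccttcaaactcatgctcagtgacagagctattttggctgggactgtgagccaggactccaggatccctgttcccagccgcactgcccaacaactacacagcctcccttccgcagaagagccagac
G and C made up 72% of the Pdgfa stretch, where the median promoter had 51% over the same length, and 53.6% of the Pdgfd stretch, where the median was 52.4%. TATAAA begins 160 bases before the Pdgfd start and is found in 12.4% of the 32851 RefSeq promoters of the table over 250 bases. GGGCGG is in neither stretch, and in 32.7% of promoters over 250 bases and 17.6% over 157.

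Pdgfra (ENSMUSG00000029231; chromosome 5, 75152292 to 75198215, plus strand), the receptor for PDGF-A and PDGF-C, had 190 UMIs, of which 77.4% were in the Müller class. They were not spread over it. The young library had 142 of them, at 85.2 CPM (71.8 to 100), the adult 5, at 2.57 CPM, and the old none, where a count of 0 allows up to 1.93 CPM, and the 142 came from 6 cells with 57, 27, 26, 16, 8 and 8 UMIs. Finer clustering put these 6 cells in a cluster of 28 young, 42 adult and 45 old cells that met 6 of 7 Müller glia markers but was left unnamed, since its median UMI count was low in the old library and other genes led it. The 6 cells held between 13987 and 19026 UMIs each. All 6 had Gfap, the glial filament gene, with 8 to 60 UMIs, and S100b with 37 to 141, and 5 of 6 had Pax2, a transcription factor of retinal astrocytes. Of the 22 other young cells of the cluster, 1 had Gfap, 3 had S100b and none had Pax2. Olig1, Olig2 and Sox10, genes of the oligodendrocyte lineage in which Pdgfra is also known, had 0 UMIs in the 6 cells, as had the fibroblast gene Dcn, while Fbln1, another gene of the fibroblast list, had 1 UMI in 4 of them. Rlbp1, a Müller glia marker, had 15 to 21 UMIs in each of the 6.

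The adult and old libraries held no Pax2 UMI in any kept cell, against 5 young cells with one. In the 1957 adult cells 1 had 5 or more Pdgfra UMIs, a cell of the lens class, and in the 1697 old cells none, where a count of 0 in the 209 old Müller glia allows a share of cells with a UMI of up to 1.44%. The age ratio of Pdgfra in the Müller class is therefore a count of 6 cells and was read no further. No Pdgfra UMI was found in any pericyte, smooth muscle cell, rod, cone or bipolar cell.

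**Figure D4:**
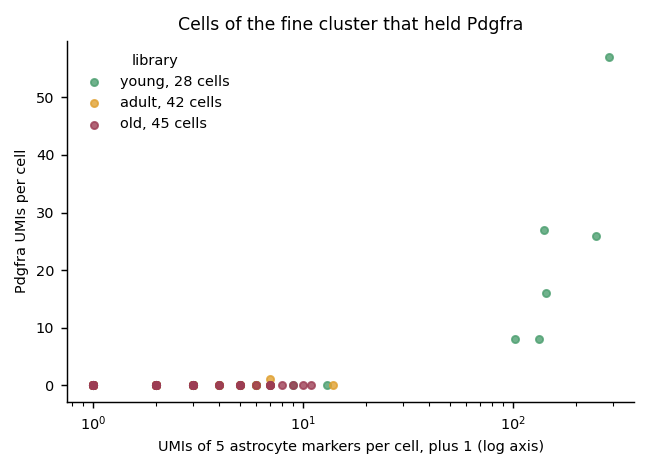
Pdgfra UMIs per cell against the summed UMIs of 5 astrocyte markers plus 1 (log axis), for the 115 cells of the finer cluster that held most Pdgfra UMIs. The 6 young cells with 8 to 57 Pdgfra UMIs have 101 to 285 astrocyte marker UMIs, and the other young cells have 12 or fewer.

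Pdgfc (ENSMUSG00000028019; chromosome 3, 81036416 to 81214040, plus strand), a latent PDGFRα ligand, was the rarest member, with 78 UMIs, of which 62.8% were in Müller glia. They stood at 10.8 CPM young (6.40 to 17.1), 7.70 adult (4.31 to 12.7) and 10.3 old (5.90 to 16.8), with at least 1 UMI in 8.79, 6.51 and 7.66% of cells and in none of the rods. After thinning, 4.65, 3.02 and 1.80% had one. Smooth muscle cells, a smaller class, had 2, 1 and 7 UMIs, at 6.5, 3.04 and 19.5 CPM. Over all libraries their level was 10 CPM (4.82 to 18.5) and that of Müller glia 9.48 (7.02 to 12.5), with overlapping intervals. No pair of libraries differed beyond counting error in Müller glia.

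The order of the levels was thus gene by gene. For Pdgfb the low-UMI endothelial class, at 605 CPM over all libraries (540 to 676), and endothelial cells, at 534 (520 to 548), overlap, and mixed droplets at 383, pericytes at 34.5 and smooth muscle cells at 23.1 follow, the intervals of these last overlapping. For Pdgfrb each step from pericytes (1702) through mixed droplets (636), smooth muscle cells (395) and Müller glia (79.9) to the low-UMI endothelial class (29.1) is beyond counting error, and that class and endothelial cells (28.6) overlap. For Pdgfa smooth muscle cells (322) and pericytes (132) stand apart from each other, and the low-UMI endothelial class (93.1), mixed droplets (92.1) and endothelial cells (77.9) follow, where the interval of the low-UMI class (68.7 to 123) overlaps those of pericytes, mixed droplets and endothelial cells. For Pdgfd endothelial cells (37.8) and mixed droplets (26.1) are apart, and smooth muscle cells (20.1) overlap the latter.

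**Figure D5:**
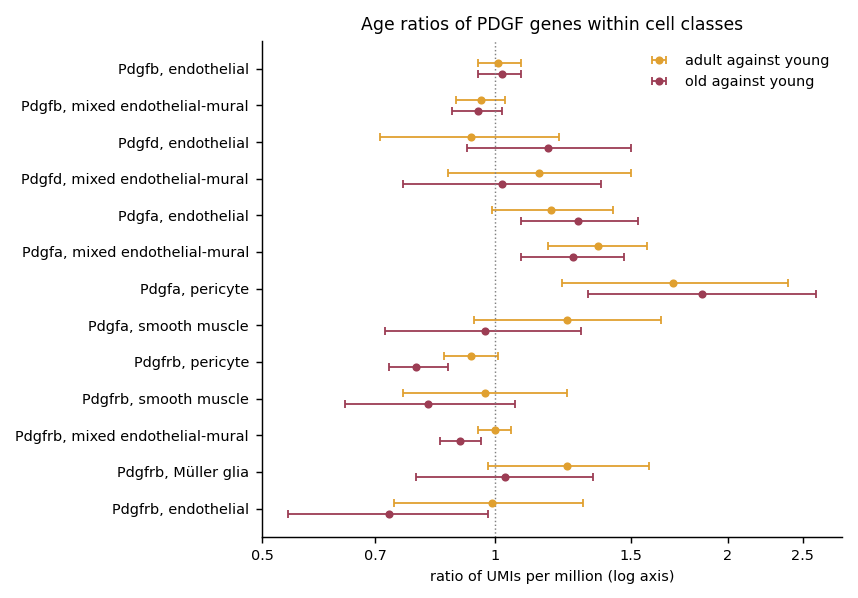
Ratio of the level of a PDGF gene in the adult or old library to the young library within a class (log axis), with exact 95% counting intervals. The intervals that lie clear of 1 include Pdgfrb in old pericytes (0.79) and Pdgfa in old and adult pericytes (1.85 and 1.70).

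The genes around PDGF signalling were read from a list of 70: ligand processing, binding and co-receptors, adaptors and kinases, and brakes. In endothelial cells 60 of them had at least 50 UMIs over young and old. There 2 were at least 1.5-fold higher in the old library, or 3.33%, where 4.92% of all 8995 genes were, and 2 were at least 1.5-fold lower, or 3.33%, where 3.09% of all genes were. The median log2 ratio was -0.02 over the list and 0.03 over all genes. Between adult and young, 1 gene was higher and none lower, where 2.76% and 1.48% of all 8875 genes were. In pericytes 47 were tested between old and young, with 3 higher (6.38%, against 7.41% of all genes) and 1 lower (2.13%, against 4.34%), and medians of -0.01 and 0.07. Between adult and young 2 of 48 were higher and none lower, where 5.52% and 3.59% of 4043 genes were. Among the members, Pdgfa in pericytes was the only one past 1.5-fold of the 2 tested there, and none of the 4 tested in endothelial cells was.

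Of the genes that mature the ligands, Furin, a convertase that trims PDGF-A and PDGF-B, stood at 50.6, 44.1 and 62.9 CPM in young, adult and old endothelial cells, an old to young ratio of 1.24 (1.02 to 1.53). Plat, tissue plasminogen activator, which cuts PDGF-C, stood at 343, 416 and 351 CPM (1.02, 0.94 to 1.11) in endothelial cells and at 501, 423 and 477 (0.95, 0.80 to 1.13) in pericytes. Plau, urokinase, which cuts PDGF-D, had 33, 24 and 21 UMIs in pericytes (0.90, 0.49 to 1.60) and 1 UMI in endothelial cells over the 3 libraries. Pcsk5, another convertase, had 10, 9 and 6 UMIs in endothelial cells and 1 in pericytes.

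Among the binding partners, Sparc, a matrix protein that binds PDGF-B, stood at 988, 961 and 898 CPM in endothelial cells (0.91, 0.87 to 0.96) and at 1149, 1019 and 1139 in pericytes (0.99, 0.89 to 1.11). Lrp1, an endocytic co-receptor of PDGFRβ, stood at 465, 466 and 391 CPM in pericytes (0.84, 0.70 to 1.01). It was one of the genes past the fold in endothelial cells, at 13.2 CPM young and 6.81 old (0.52, 0.30 to 0.87). Nrp1, neuropilin 1, stood at 256, 229 and 188 CPM in pericytes (0.73, 0.56 to 0.94) and at 170, 171 and 143 in endothelial cells (0.84, 0.75 to 0.95). Ext1, an enzyme of heparan sulfate synthesis, was higher in old endothelial cells, at 10.4 and 16.3 CPM (1.57, 1.01 to 2.47).

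Inside the cell, Ptpn11, the phosphatase SHP2 that PDGFRβ recruits, stood at 73.6, 71.7 and 124 CPM in pericytes (1.68, 1.14 to 2.48) and at 69.3, 88.0 and 86.4 in endothelial cells (interval of the ratio 1.05 to 1.49). Shc1, an adaptor, stood at 58.0 young and 89.8 old CPM in pericytes (1.55, 0.99 to 2.42), and Pik3r2, a regulatory subunit of PI3-kinase, at 50.9 and 27.9 (0.55, 0.27 to 1.04), so these were past the fold but not beyond counting error. Pik3r1, another such subunit, stood at 236, 195 and 194 CPM in pericytes (0.82, 0.63 to 1.06). In endothelial cells Gab1, a docking protein, was lower in the old library, at 57.3 and 37.6 CPM (0.66, 0.52 to 0.82), and Plcg1, phospholipase C gamma, stood at 96.2, 91.6 and 78.7 (0.82, 0.70 to 0.96). Those past the fold between adult and young, named after their values were seen, were Nck2 in endothelial cells, at 6.13 and 10.7 CPM (1.74, 0.98 to 3.17), and Stat3 and Akt2 in pericytes. Stat3 stood at 43.9 young and 84.2 adult CPM (1.92, 1.19 to 3.13), and Akt2 at 43.9 and 68.1 (1.55, 0.94 to 2.58).

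Of the brakes on the receptors, Ptpn1, a phosphatase that removes the activating phosphates, stood at 59.4, 52.0 and 93.8 CPM in pericytes (1.58, 1.02 to 2.45). Ptprj, a receptor phosphatase, was higher in old endothelial cells, at 30.6, 36.7 and 47.4 CPM (1.55, 1.20 to 2.0), and had 7, 8 and 16 UMIs in pericytes. Rasa1, the Ras GTPase-activating protein that docks on PDGFRβ, stood at 83.3, 83.0 and 73.0 CPM in endothelial cells (0.88, 0.74 to 1.04) and had 26, 20 and 25 UMIs in pericytes.

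The genes whose level over the 30 class and library points was most like that of a member were, by Pearson correlation of log2(CPM + 10) among 11588 genes, as follows. For Pdgfb they were Ocln, Erg and Adcy4 (r = 0.99 each), for Pdgfrb Vstm4 and Arhgap42 (0.98 each), for Pdgfa Cnn2, Map3k20 and Tln1 (0.98 each) and for Pdgfd Wfdc1, Cd93 and Entpd1 (0.93, 0.93 and 0.92). The points of a library share that library's preparation, and Pdgfc and Pdgfra had too few UMIs for this measure.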

How the data were processed

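The deposited files hold raw counts that the authors made with Cell Ranger 6.1.2 on mm10 (submitters' processing notes): each value is the whole number of UMIs that a barcode had for a gene, in 1 matrix per library. Whether the counting used strand is not given in the sources used here. Cells with 500 to 6000 genes and 1 to 20% mitochondrial UMIs were kept, the study's own limits. Scrublet (scanpy 1.11.5), in place of the study's caller, marked 7, 17 and 16 doublets, which were removed. No barcode was shared between the young and another library, and 2 were shared by the adult and old.

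Libraries were integrated and clustered in Seurat 5.3.0 (R 4.3.3; 2000 features, 30 components, resolution 0.5, and 1.0 for finer clusters). A marker counted when detected in 20% of a cluster's cells at 25% or more of its highest cluster level. A name needed 3 markers, a cluster that met 50% of the markers for several classes was called mixed (smooth muscle with pericyte lists, and astrocyte with Müller lists, counted as 1 lineage and took the name with the larger share), and one led by other genes with median UMIs under 33.3% of its library stayed unnamed. These thresholds were set after the clusters were seen, and a difference from the study may come from rebuilt names.

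UMIs were summed per class and library into CPM. Intervals are exact 95% Poisson, conditional (ratios) or Clopper-Pearson (shares), from scipy 1.17.1, for counting error only. A count of 0 is set against 3 counts. The script was checked on simulated counts. Pathway calls needed 50 UMIs over both libraries and a 1.5-fold ratio. Genes were named by rule: all members, the 3 genes most like each member with at least 200 UMIs, pathway genes past the fold, and 13 set for their role. Of the genes most like Pdgfrb, 1 is not reported here. Positions come from GENCODE M21 by gene ID, which held 32158 of the 32285 IDs. RefSeq promoters were found for Pdgfa, Pdgfc, Pdgfd and Pdgfra. The members and lists were chosen with earlier results of these data known. Alternatives are given in the closing section.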

Additional observations from a re-analysis of the deposited data

Results flagged for a closer look

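Classes with under 30 cells in some library entered no comparison, and in some of them a PDGF gene stood above the rod level over all libraries (Pdgfa 1.44, Pdgfb 2.40, Pdgfd 0, Pdgfra 0 and Pdgfrb 2.40 CPM). A lens class, with 36 cells in the adult library alone, had Pdgfra at 32.4 CPM (21.2 to 47.5, 26 UMIs) and Pdgfrb at 83.5 CPM (64.7 to 106, 67 UMIs). A mixed class with pigment epithelium and platelet markers, with 1, 7 and 53 cells, had Pdgfa at 97.0 CPM (65.0 to 139), 26 of its 29 UMIs in the old library. A mixed endothelial-erythroid class of 22, 24 and 19 droplets had Pdgfa at 75.2, Pdgfb at 271, Pdgfd at 19.9 and Pdgfrb at 284 CPM, beside endothelial markers at 7108 and pericyte markers at 7391 CPM. A mixed class with microglia and T cell markers, with 9, 29 and 14 cells, had Pdgfb at 143 CPM (110 to 184), 49 of 62 UMIs in the adult library, and Pdgfrb at 132 CPM (99.8 to 171), beside endothelial markers at 1401 and pericyte markers at 2243 CPM.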

How the results depend on the processing

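No paired analysis was possible because each age is 1 library and no test was run. For the same reason no replicate was left out. Of 163 alternative values of the age ratios, 154 lay within the counting interval of the reported value, and no ratio beyond counting error turned its direction.

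The Pdgfb old to young ratio in endothelial cells was 1.13 without cells that carried 2 or more UMIs of other markers, and 0.93 with the UMIs per rod subtracted from gene and total. Under the same settings the Pdgfrb ratio in pericytes was 0.72 and 0.68, and its adult to young ratio was 1.02 with cells thinned to 2000 UMIs. The Pdgfrb ratios in smooth muscle, 0.82 old to young and 0.97 adult to young, were 1.24 and 1.31 after thinning. The Pdgfa old to young ratio in pericytes was 2.63 without cells carrying other markers. That setting kept 63 of 171 young and 31 of 103 old pericytes, and 191 of 446 young and 181 of 411 old endothelial cells. Of 72 alternative levels 24 lay outside the counting interval, most of them under the subtraction from gene and total, which put Pdgfrb in pericytes at 3427, 3169 and 2346 CPM, Pdgfa there at 168, 282 and 265 and Pdgfb there at 57.6, 48.8 and 70.6. Subtraction from the total, doublets kept for the share, mixed droplets on both sides, the quotient over all kept cells and the pericytes low in Acta2, Tagln and Myh11 were chosen after seeing the data.

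The pericyte share was 28.3, 19.4 and 19.3% (young, adult, old) with mixed droplets counted as pericytes, and 12.3, 8.58 and 8.25% with smooth muscle cells included. Mural cells per 100 endothelial cells were 63.7, 55.7 and 51.5 with mixed droplets on both sides, and 46.9, 38.9 and 34.1 with smooth muscle cells. Pdgfb UMIs per Pdgfrb UMI were 1.20, 1.65 and 2.28 with smooth muscle cells, and 0.79, 0.85 and 1.11 over all kept cells.

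In endothelial cells the old library had 3 pathway genes higher and 9 lower of 60 at the smaller fold tried (5 and 15%, against 14.8 and 10.8% of all genes), 5 and 3 of 65 at a minimum of 20 UMIs (7.69 and 4.62%, against 7.17 and 5.54%), and 1 and 3 of 46 after thinning (2.17 and 6.52%, against 5.54 and 4.46%). In pericytes it had 10 higher and 6 lower of 47 at the smaller fold (21.3 and 12.8%, against 22 and 13.1%), 5 and 5 of 61 at 20 UMIs (8.2% each, against 13.1 and 8.88%), and none of 16 after thinning, 0 higher and 0 lower, against 7.85 and 4.81%. With log2(CPM + 1), Ocln stayed first for Pdgfb, and the first gene was another one for Pdgfa, Pdgfd and Pdgfrb.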
